A study of Saccharomyces cerevisiae with 50 samples.

Results

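The 9 genes described here carry out or steer ammonium assimilation in budding yeast: the ammonium permease genes MEP1 (YGR121C), MEP2 (YNL142W) and MEP3 (YPR138C), the NADPH-dependent glutamate dehydrogenase genes GDH1 (YOR375C) and GDH3 (YAL062W), the glutamine synthetase gene GLN1 (YPR035W), the glutamate synthase gene GLT1 (YDL171C), the NAD-dependent glutamate dehydrogenase gene GDH2 (YDL215C) and the GATA-family repressor gene DAL80 (YKR034W). They were chosen by function and located by systematic name, 9 of the 5743 genes counted for deletion-strain mRNA, and each was present in all count tables used. In cells, ammonium enters through the Mep permeases and is joined to 2-oxoglutarate by Gdh1 or Gdh3 to give glutamate, which Gln1 converts to glutamine. Glt1 returns the amide nitrogen of glutamine to glutamate, whereas Gdh2 runs in the breaking direction and releases ammonium from glutamate. Under nitrogen catabolite repression, a preferred nitrogen source keeps the activators Gln3 and Gat1 from the genes for poorer sources, and Dal80 competes for the same GATA elements.

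All strains were of the BY4741 background (MATa, with his3Δ1, leu2Δ0 and ura3Δ0 throughout, and met15Δ0 except in the methionine-prototrophic set). The strains Δrpl7a, Δrpl9a, Δrpl6a, Δrpl15b and Δrps27b each carried a kanMX4 cassette in place of 1 ribosomal protein gene, and were compared with BY4741 in mRNA-seq and in ribosome profiling (Ribo-seq), which counts the mRNA fragments that ribosomes protect (footprints). The study classed Δrpl7a and Δrpl9a as long-lived, and Δrpl6a, Δrpl15b and Δrps27b as short-lived. Overexpression of the activator Gcn4, profiled by mRNA-seq alone, came from a chromosomal ADH1 promoter (PADH1-GCN4), from the same promoter with the S242L substitution in Gcn4 (PADH1-GCN4S242L), both set against the MET15 strain wt_met, and from the plasmid pEGH with a galactose-inducible GST fusion (PGAL-GST-GCN4), set against wt_ura3 with plasmid pRS426. Every group held 3 libraries apart from Δrpl6a Ribo-seq with 2. Cultures grew in YPD to mid-log phase unless otherwise stated, and no other medium is named in the labels for the plasmid strains.

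Library totals ran between 5709195 and 12696200 counts for mRNA and between 8092039 and 15437373 for footprints of the deletion set, between 14061819 and 25642672 for the ADH1 promoter set and between 10722664 and 13693442 for the plasmid set. Each deleted gene was near 0 in mRNA of the strain named for it, from 0.545 to 3.90 CPM (a gene's counts relative to the scaled library total) as a mean of 3 libraries. Footprints on the deleted genes in those strains averaged 13.5 CPM for RPL15B, 13.4 for RPL9A, 8.35 for RPL7A, 5.89 for RPL6A and 4.81 for RPS27B. Mean footprints of GDH3, MEP1 and MEP2 were at most 3.34, 7.12 and 4.94 CPM in any group, within or below this range. The source of footprints on deleted genes was not tested. Against its label, Δrps27b carried MET17 (the gene of the met15Δ0 allele) at 44.6 CPM in mRNA, compared with 0 CPM in the wild type, so means over strains are also given without it. Genes of chromosome XI had a median log2 fold change of 0.95 in Δrps27b mRNA, and those of chromosome XII 0.63 in Δrpl6a mRNA, and DAL80 is the only one of the 9 genes on either. LEU2 reached 4802 CPM with the PGAL-GST-GCN4 plasmid, against 2.67 CPM in wt_ura3, so a difference of plasmid and marker cannot be told apart from that of Gcn4 there. Values are relative within a library, so an equal change of all mRNAs per cell would not be seen.

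In the R64 assembly each of the 9 genes is a single coding exon, and no annotated gene overlaps any of them on either strand. GDH1 lies on chromosome XV (1041678 to 1043042, minus strand), GDH3 on I (31567 to 32940, plus), GDH2 on IV (70640 to 73918, minus), GLT1 on IV (149203 to 155640, minus), GLN1 on XVI (642208 to 643320, plus), MEP1 on VII (731449 to 732927, minus), MEP2 on XIV (357453 to 358952, plus), MEP3 on XVI (810984 to 812453, minus) and DAL80 on XI (506898 to 507707, plus). The coding sequences of GDH1 and GDH3 were 76.7% identical and those of MEP1 and MEP3 70.3%. Even so, only 8 of 1338 windows of 28 bases in GDH1 and 8 of 1347 in GDH3 occurred a second time in the genome, and none of those of the other 7 genes did. With 50-base windows the count was 0 for each gene, so reads of that length without mismatches could be told apart. The authors' mapping tolerated mismatches, and windows with mismatches were not searched.

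The 500 bases before each start codon were searched on both strands for TGACTC, the core of the Gcn4 recognition sequence, and for GATAAG, the core bound by GATA factors, with overlapping matches counted separately. TGACTC occurred before GDH2, GLN1 and GDH1, 1 time each, and before 12.6% of 6002 coding genes. GATAAG occurred before 7 of the 9 genes and before 22.7% of coding genes, with 7 matches before MEP2, 5 before MEP3, 3 each before GDH3 and DAL80, and 2 each before GDH1, GLT1 and MEP1. At least 5 matches were found before 0.0666% of coding genes. The windows below are shown because GDH2 and GLN1 were higher in PADH1-GCN4, GDH1 was lower in PGAL-GST-GCN4 alone, and MEP1 was higher in the long-lived strains. They read 5′ to 3′ on the gene's own strand, with the match in capitals (GAGTCA and CTTATC are the reverse complements), and a match is not evidence of binding.
GDH2, chrIV:74129-74154, minus strand: aagtaactacGAGTCAacggcggcat
GLN1, chrXVI:641930-641955, plus strand: gaattaaagaTGACTCcgacgcatat
GDH1, chrXV:1043519-1043542, minus strand: aggttccaTGACTCcatggaaacg
MEP1, chrVII:733285-733310, minus strand: gccctggttgCTTATCtctgcggaca
MEP1, chrVII:733225-733250, minus strand: ttgcgataacGATAAGattcacaatt
The match lay 226 bases before the start codon of GDH2, 268 before that of GLN1, 492 before that of GDH1, and 373 and 313 before that of MEP1. No TGACTC was found in the window of GLT1, which says only that these letters are absent from those bases.

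In the wild type the 9 genes differed widely in level. As CPM per kilobase of coding sequence (RPKM), mRNA averaged 772 ± 28.7 for GLN1 and 316 ± 31.3 for GDH1 (SD, n = 3), at percentiles 95.8 and 90.9 of 5318 genes. GLT1 followed at 40.8 ± 3.48 RPKM and GDH2 at 26.6 ± 2.19 RPKM, with all 3 libraries of GLT1 above those of GDH2. The permeases and the second NADPH-dependent dehydrogenase were low: MEP3 had 14.4 ± 0.45 RPKM, GDH3 10.7 ± 1.53, MEP1 6.67 ± 0.39 and MEP2 3.39 ± 1.88, and every MEP1 library lay above every MEP2 library. DAL80 gave 0, 2 and 2 counts, where 3 counts in the smallest library correspond to 0.515 CPM.

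The ratio of footprint to mRNA RPKM, the translation efficiency, ranged in the wild type from 0.179 for GDH3 (percentile 3.21 of 5318 genes) to 1.80 for GLT1 (percentile 92.2). GLT1, with the longest coding sequence of the set, thus had more footprints per mRNA than GDH1 at 0.689 or GLN1 at 0.61. The order of footprint levels was GLN1, GDH1, GLT1, GDH2, MEP3, MEP1, MEP2 and GDH3, at 471, 218, 73.4, 18.9, 13.3, 3.38, 3.27 and 1.91 RPKM. The libraries of the last 3 overlapped one another, with SDs of 1.25, 0.93 and 1.05 RPKM.

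Against the wild type, members were tested in each deletion strain with edgeR's quasi-likelihood test, and a gene is said to have risen or fallen only at a Benjamini-Hochberg adjusted p below 0.01 over all genes with a fold change of more than 2. DAL80 did not pass the filter on low counts, so 8 members were tested. The long-lived Δrpl7a had 2 of 8 mRNAs called, both higher, against 18.7% of 5490 genes, and Δrpl9a had 1, against 7.96%. Among the short-lived strains Δrpl6a had 2 called, against 5.05%, whereas Δrpl15b and Δrps27b had 0, against 0.492% and 5.54%. At an adjusted p below 0.01 without a fold minimum, Δrpl15b and Δrps27b still had 0 members, against 0.656% and 13.8% of genes. At an unadjusted p below 0.05 they had 2 and 3, and DESeq2 called 0 in both. For counts at an unadjusted p and for groups whose libraries did not overlap, here and below, the share of all genes was not computed. Neither therefore has a background to be read against.

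**Figure D1:**
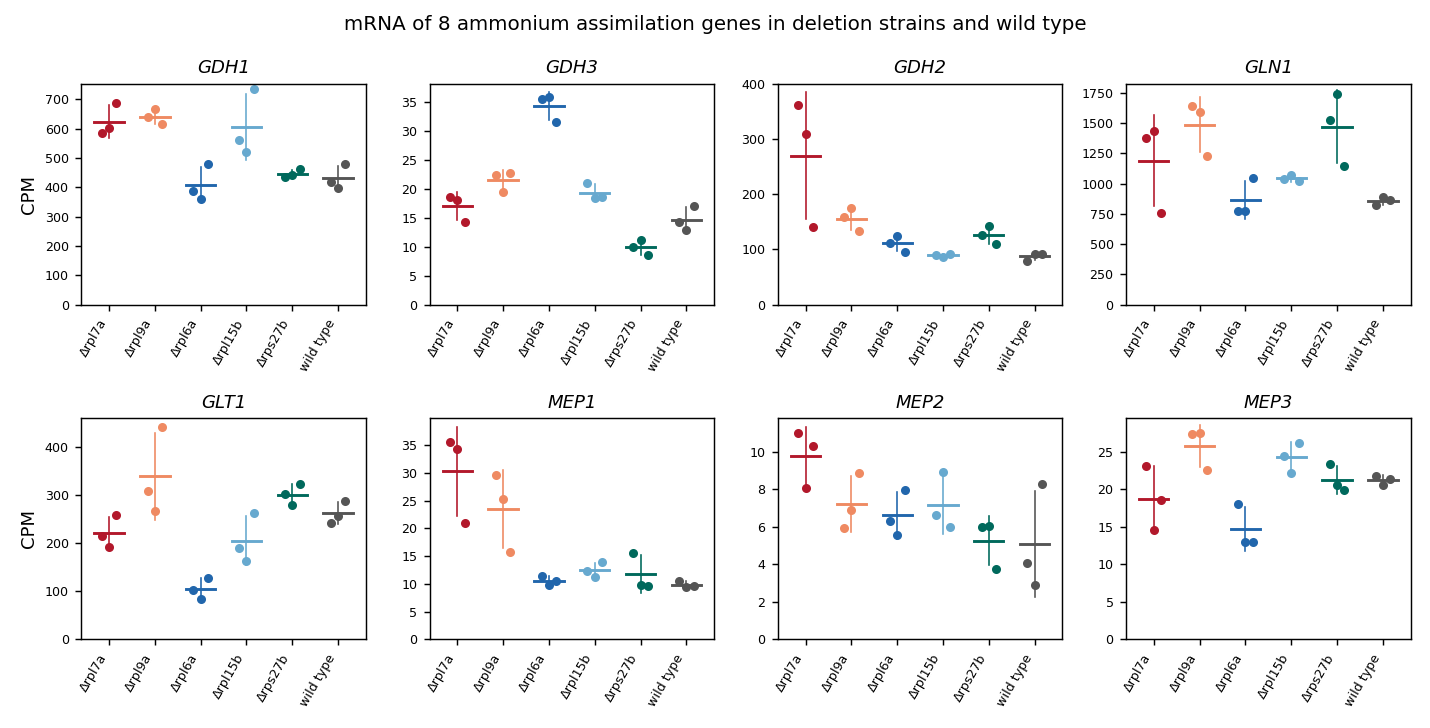
mRNA levels in CPM (linear axes from 0) of the 8 members that passed the count filter, in the 5 deletion strains and the wild type. Points are libraries, horizontal lines means and vertical lines SD (n = 3). MEP1 is highest in Δrpl7a and Δrpl9a, GDH2 in Δrpl7a, and Δrpl6a holds the highest GDH3 and the lowest GLT1 levels.

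Among the permeases, MEP1, which encodes an ammonium permease of high capacity, gave 35.6, 34.3 and 21.1 CPM in Δrpl7a and 29.5, 25.3 and 15.8 CPM in Δrpl9a, against 10.5, 9.40 and 9.69 CPM in the wild type. Every library of the long-lived strains exceeded every wild-type library, and replicate 3 was the lowest in each. MEP1 mRNA rose by a log2 fold change of 1.61 ± 0.25 (SE, adjusted p = 4.7e-05) in Δrpl7a and of 1.25 ± 0.25 (adjusted p = 0.0011) in Δrpl9a. In the short-lived strains MEP1 differed by 0.10 ± 0.26 in Δrpl6a, 0.35 ± 0.25 in Δrpl15b and 0.26 ± 0.26 in Δrps27b, none past the threshold.

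The difference between long-lived and short-lived strains was also tested directly, as the mean of 2 strains minus the mean of 3. Its SE and p rest on the spread of libraries within strains. They do not measure the spread among strains of a lifespan class. MEP1 was the only member called there, at 1.19 ± 0.15 (adjusted p = 4.8e-06), against 8.51% of all genes. GDH2 was higher by 0.93 ± 0.15, GLT1 by 0.56 ± 0.13 and GDH1 by 0.40 ± 0.09, each with an adjusted p below 0.01 (5.2e-05, 0.0014 and 0.00098) and less than 2-fold. Of all genes, 44% had an adjusted p below 0.01 in this comparison. Leaving out replicate 3 of Δrpl7a brought GDH2 to 1.07, past the fold minimum. With Δrps27b left out of the fit, MEP1 was at 1.18 (adjusted p = 3.1e-05) and GDH2 at 1.01 (adjusted p = 0.00022), both called. GLT1 was then at 0.88 (adjusted p = 0.00028), GDH1 at 0.32 (adjusted p = 0.021) and GDH3 at −0.46 (adjusted p = 0.0014), against 0.03 ± 0.09 (adjusted p = 0.78) for GDH3 with that strain.

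MEP2 and MEP3 did not pass the threshold in any strain. MEP2, the permease of highest affinity and a sensor of ammonium, gave 11, 8.07 and 10.3 CPM in Δrpl7a, against 4.08, 2.90 and 8.26 CPM in the wild type. These libraries overlapped by 1 wild-type library, replicate 3, and the difference was 0.92 ± 0.30 (adjusted p = 0.015). Without that library it was 1.48 and was called. MEP3 stayed between 12.9 and 27.5 CPM in all 18 libraries, and its lowest mean was that of Δrpl6a, with 18, 12.9 and 13.0 CPM, against 21.8, 20.5 and 21.4 CPM in the wild type (−0.53 ± 0.17, adjusted p = 0.031).

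GDH2, which encodes the enzyme that breaks glutamate down, gave 361, 309 and 140.5 CPM in Δrpl7a, against 79.1, 92.1 and 90.9 CPM in the wild type. The 3 Δrpl7a libraries lay above the wild type but spread widely, with replicate 3 the lowest. GDH2 mRNA rose by 1.63 ± 0.24 (adjusted p = 3.1e-05), and lay between 1.34 and 1.92 over 11 alternative settings, called in each. In Δrpl9a it gave 158, 174 and 133 CPM, a difference of 0.83 ± 0.24 that missed the threshold (adjusted p = 0.013) although no library overlapped the wild type.

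GDH1, the main biosynthetic glutamate dehydrogenase, gave 583, 601 and 687 CPM in Δrpl7a and 638, 665 and 617 CPM in Δrpl9a, against 416, 397 and 479 CPM in the wild type. The groups did not overlap, with differences of 0.53 ± 0.14 (adjusted p = 0.0033) and 0.57 ± 0.14 (adjusted p = 0.0049) that were under 2-fold. GDH1 differed from the wild type by −0.07 ± 0.14 in Δrpl6a, 0.49 ± 0.14 in Δrpl15b and 0.05 ± 0.14 in Δrps27b. GLN1 was higher by 0.79 ± 0.21 in Δrpl9a (adjusted p = 0.0082) and by 0.78 ± 0.21 in Δrps27b (adjusted p = 0.011), also under 2-fold.

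Δrpl6a moved a different pair of genes. GDH3, the paralog of GDH1 that is known to be used on non-fermentable carbon sources, gave 35.6, 35.9 and 31.5 CPM in Δrpl6a, against 14.3, 12.8 and 16.9 CPM in the wild type. It rose by 1.22 ± 0.14 (adjusted p = 1.2e-05). GLT1, which encodes glutamate synthase, gave 103, 83 and 128 CPM in Δrpl6a, against 243, 257 and 287 CPM in the wild type, and fell by 1.33 ± 0.21 on the log2 scale (adjusted p = 0.00017). Neither pair of groups overlapped, and the share of all genes without overlap was not computed.

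Whether Δrpl6a differed from the other deletion strains was tested in a comparison chosen after these values were seen, Δrpl6a minus the mean of the other 4. GDH3 was higher by 1.08 ± 0.10 (adjusted p = 4e-07) and GLT1 lower, at −1.32 ± 0.18 (adjusted p = 1.9e-05), so that 2 of 8 members were called, against 5.72% of genes. Because the choice followed the values, these p-values and this count describe them and are not a separate test. With Δrps27b left out, GLT1 stayed called at −1.24 (adjusted p = 0.00017), whereas GDH3 was at 0.85 (adjusted p = 2.6e-05) and under the fold minimum. GDH1, MEP1 and MEP3 were lower by less than 2-fold at adjusted p of 0.0034, 0.0087 and 0.0028, where 18.4% of all genes had an adjusted p below 0.01. Within the other 4 strains GDH3 was lowest in Δrps27b at 9.97, 11.1 and 8.49 CPM, which against the wild type was −0.58 ± 0.15 (adjusted p = 0.01) and under 2-fold.

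**Figure D2:**
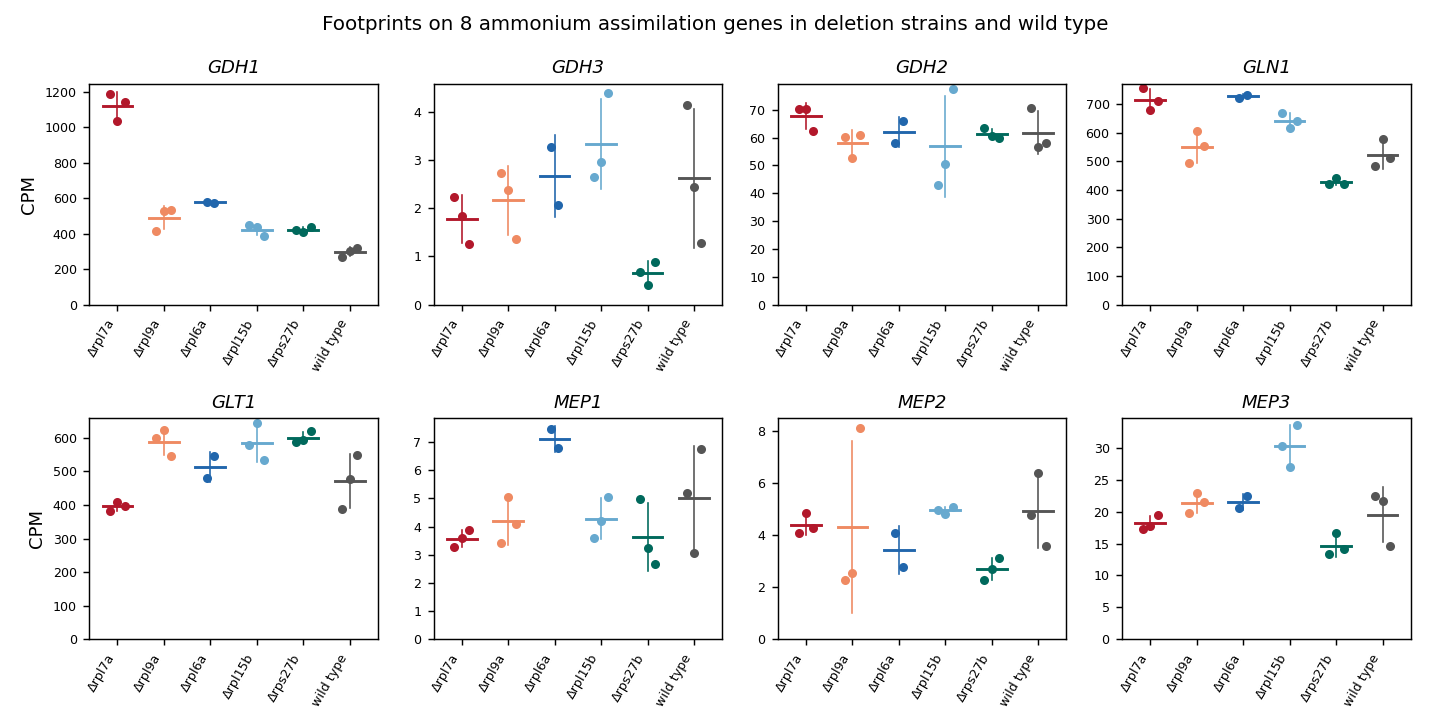
Footprint levels in CPM (linear axes from 0) of the same 8 members, in the 5 deletion strains and the wild type. Points are libraries, horizontal lines means and vertical lines SD (n = 3, and n = 2 for Δrpl6a). GDH1 is above the wild type in every deletion strain and highest in Δrpl7a, and GDH3 is lowest in Δrps27b.

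On footprints, 1 of 8 members was called in Δrpl7a, against 5.84% of 5342 genes, and 1 in Δrps27b, against 8.99%. Δrpl9a, Δrpl6a and Δrpl15b had 0, against 3.44%, 2.92% and 1.39% of genes. At an adjusted p below 0.01 alone, those 3 strains had 1, 2 and 1 members, GDH1 among them in each, against 20.8%, 10.2% and 3.13% of genes. At an unadjusted p below 0.05 they had 2, 2 and 4, and DESeq2 called 0.

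GDH1 was the only member whose footprints rose against the wild type. It gave 1189, 1035 and 1141 CPM in Δrpl7a, against 270.3, 301 and 319 CPM in the wild type, and rose by 1.92 ± 0.09 (adjusted p = 5.5e-12). The other deletion strains lay in between, with 413 to 532 CPM in Δrpl9a, 578 and 576 CPM in Δrpl6a, 389 to 446 CPM in Δrpl15b and 410.4 to 436 CPM in Δrps27b. Each of these 11 libraries was above every wild-type library, and the differences were 0.72 ± 0.09, 0.96 ± 0.10, 0.51 ± 0.09 and 0.51 ± 0.09, all with adjusted p below 0.01 and less than 2-fold.

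The 5 comparisons share the wild-type libraries and are not independent of one another. Without wild-type replicate 3, the Δrpl6a difference was 1.01 and past the fold minimum. A comparison among the deletion strains alone, chosen after the values were seen, put GDH1 footprints of Δrpl7a 1.24 ± 0.07 above the mean of the other 4 (adjusted p = 1.2e-11), the 1 member called there, against 4.31% of genes, and 1.19 with Δrps27b left out. It too describes values already seen and is not a separate test. Between long-lived and short-lived strains GDH1 footprints differed by 0.66 ± 0.06 (adjusted p = 2.8e-08), less than 2-fold. The SE and p again rest on libraries within strains. In that comparison 0 of 8 members were called, against 2.75% of genes. At an unadjusted p below 0.05, 2 members passed in that comparison, GDH1 and GLT1, and DESeq2 called 0.

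GDH3 footprints were sparse, with 5, 3 and 8 counts in Δrps27b, against 48, 20 and 15 counts in the wild type. In CPM these were 0.672, 0.406 and 0.89 in Δrps27b, against 4.16, 2.45 and 1.28 in the wild type, with no overlap. GDH3 footprints fell by 1.96 ± 0.53 on the log2 scale (adjusted p = 0.0045). The call was lost without replicate 1 or replicate 2 of Δrps27b (adjusted p = 0.016 and 0.025), without wild-type replicate 1 (−1.42, adjusted p = 0.045) and in a fit of only these groups (adjusted p = 0.014). Against the mean of the other deletion strains, a comparison chosen after the values were seen and so not a separate test, GDH3 was at −1.84 ± 0.47 (adjusted p = 0.0025), 1 member called against 7.75% of genes. This call was lost without the same Δrps27b libraries (adjusted p = 0.013 and 0.02). Every GDH3 footprint level given here was below the mean of 4.81 CPM or more found on deleted genes in their own strains.

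For the permeases and GDH2, footprints did not follow the mRNA differences of the long-lived strains. MEP1 gave 3.27, 3.58 and 3.87 CPM in Δrpl7a and 3.41, 5.07 and 4.10 CPM in Δrpl9a, against 5.20, 3.06 and 6.74 CPM in the wild type, which overlapped. GDH2 gave 70.4, 70.3 and 62.3 CPM in Δrpl7a, against 70.6, 56.8 and 58.1 CPM in the wild type (0.13 ± 0.15, adjusted p = 0.52). The approximate 95% interval of this GDH2 difference, −0.17 to 0.42, lies below the 1.63 of the mRNA. GLN1 footprints were higher in Δrpl7a (0.45 ± 0.08) and Δrpl6a (0.47 ± 0.09) and lower in Δrps27b (−0.29 ± 0.08), each with an adjusted p below 0.01 and under 2-fold.

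The difference between the assays was tested directly as a change in translation efficiency, the footprint difference minus the mRNA difference in 1 fit of 35 libraries. In Δrpl7a 3 of 8 members were called, against 14.8% of 5524 genes: GDH1 higher at 1.39 ± 0.17 (adjusted p = 4.2e-07), and GDH2 and MEP1 lower at −1.49 ± 0.30 (adjusted p = 0.00022) and −2.11 ± 0.38 (adjusted p = 6e-05). Thus in Δrpl7a the biosynthetic dehydrogenase gained footprints beyond its mRNA, while the breakdown enzyme and a permease gained mRNA without footprints. In the study, cells for Ribo-seq were treated with cycloheximide and filtered, and mRNA came from cell pellets. A strain difference tied to harvest or culture therefore cannot be told apart from one in translation.

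The same test called 1 member in Δrpl9a, against 8.62% of genes, 2 in Δrpl6a, against 2.3%, 0 in Δrpl15b, against 0.199%, and 1 in Δrps27b, against 5.76%. In Δrpl15b 1 member had an unadjusted p below 0.05, and DESeq2 called 0. In Δrpl9a it was MEP1, at −1.54 ± 0.37 (adjusted p = 0.0025), and the call was lost without mRNA replicate 1 of Δrpl9a (adjusted p = 0.012), Ribo-seq replicate 1 of Δrpl9a (0.01) or Ribo-seq replicate 3 of the wild type (0.016). GDH2 and GLN1 were also lower in Δrpl9a, at −0.92 ± 0.30 and −0.72 ± 0.23, short of the threshold (adjusted p = 0.019 for each). In Δrpl6a GDH1 was at 1.03 ± 0.18 and GLT1 at 1.45 ± 0.25, both with an adjusted p of 0.00039, and the GLT1 footprints of 481 and 546 CPM in Δrpl6a overlapped the 389.5, 478 and 550.4 CPM of the wild type. GDH1 fell below the fold minimum, to between 0.95 and 1.00, without mRNA replicate 1 or 2 of Δrpl6a, mRNA replicate 3 of the wild type or Ribo-seq replicate 1 of the wild type. In Δrps27b GLN1 was at −1.07 ± 0.23 (adjusted p = 0.0015), and at −0.91 and −0.99 without mRNA replicate 2 of Δrps27b and Ribo-seq replicate 2 of the wild type. GDH3 was at −1.18 ± 0.42 in Δrpl6a and −1.37 ± 0.49 in Δrps27b, short of the threshold (adjusted p = 0.065 and 0.044) but called in both without Ribo-seq replicate 3 of the wild type (adjusted p = 0.0087 and 0.0059).

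**Figure D3:**
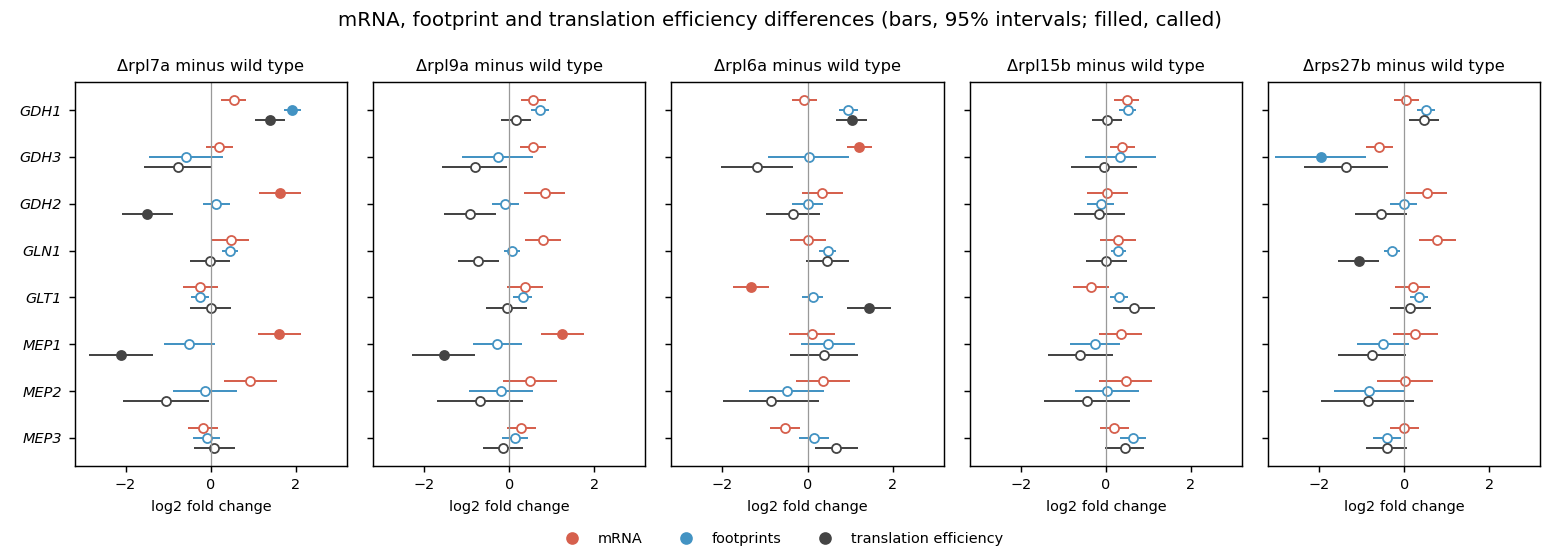
Log2 fold changes of each deletion strain minus the wild type for mRNA, footprints and translation efficiency of the 8 members. Lines are approximate 95% intervals (1.96 SE either side) and filled points passed the thresholds. In Δrpl7a GDH1 lies at 1.92 for footprints and 0.53 for mRNA, while GDH2 and MEP1 lie at 1.63 and 1.61 for mRNA and near 0 or below for footprints.

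These differences changed the balance of the dehydrogenase genes within a library. The ratio of GDH1 to GDH2, both per coding kilobase, was 3.88, 4.68 and 11.7 for mRNA in Δrpl7a, against 12.6, 10.4 and 12.7 in the wild type. For footprints it was 40.6, 35.4 and 44.0 in Δrpl7a, against 9.20, 12.8 and 13.2 in the wild type. The mRNA ratios of the strains thus overlapped and the footprint ratios were 35.4 or more in Δrpl7a against at most 13.2 in the wild type, although 3 libraries a group cannot reach significance in a permutation test of such a ratio.

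GDH3 made up 8.34%, 8.97% and 6.15% of the GDH1 and GDH3 mRNA in Δrpl6a, against 3.30%, 3.10% and 3.40% in the wild type. On footprints its share was 0.56% and 0.356% in Δrpl6a, against 1.51%, 0.80% and 0.396% in the wild type, and it did not exceed 1.51% in any of the 17 libraries. In Δrpl6a the mRNA share did not overlap the wild type, and the footprint share did.

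**Figure D4:**
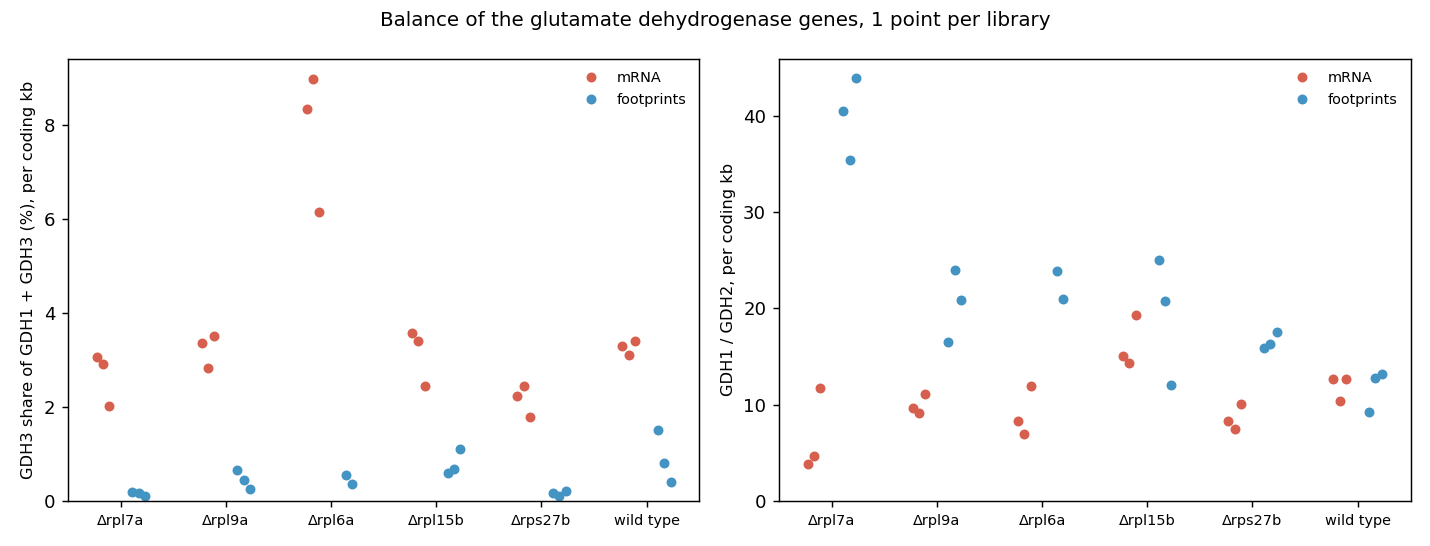
Share of GDH3 in the sum of GDH1 and GDH3 (left, percent) and ratio of GDH1 to GDH2 (right), both per coding kilobase, with 1 point per library for mRNA and footprints in the 5 deletion strains and the wild type. The GDH1 to GDH2 ratio of footprints reaches 35.4 to 44.0 in Δrpl7a and at most 13.2 in the wild type, with the other deletion strains from 12.1 to 25.0.

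Gcn4 activates amino acid biosynthesis genes, and its overexpression strains were compared for mRNA of the same genes. GCN4 itself averaged 3755 CPM in PADH1-GCN4 and 5539 CPM in PADH1-GCN4S242L, against 1032 CPM in wt_met, while PGAL-GST-GCN4 had 37334 CPM, against 935 CPM in wt_ura3. In PADH1-GCN4, 3 of 8 members rose and 0 fell, against 8.47% of 5547 genes called. They were GLT1, GLN1 and GDH2, the glutamate synthase, the glutamine synthetase and the breakdown dehydrogenase, whereas GDH1 differed by 0.03 ± 0.10 (adjusted p = 0.85).

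GLT1 gave 403, 369 and 409.7 CPM in PADH1-GCN4, against 144, 148 and 169 CPM in wt_met, and rose by 1.35 ± 0.10 (adjusted p = 6.9e-07). GLN1 gave 1665, 1821 and 1904 CPM in PADH1-GCN4, against 759, 867 and 727 CPM in wt_met, and rose by 1.19 ± 0.10 (adjusted p = 3.6e-06). GDH2 gave 142, 145 and 164 CPM in PADH1-GCN4, against 77.8, 65.0 and 75.1 CPM in wt_met, and rose by 1.04 ± 0.10 (adjusted p = 9.7e-06). In all 3 the groups were apart, though the share of all genes with groups apart was not computed. GDH2 lay just over the fold minimum and fell to 0.97 without replicate 3 of PADH1-GCN4 or replicate 2 of wt_met.

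The permeases and GDH3 moved by less than 2-fold. MEP1 gave 22.7, 22.8 and 27.6 CPM in PADH1-GCN4, against 12.8, 11.7 and 14.4 CPM in wt_met (0.90 ± 0.12, adjusted p = 0.00013), and MEP2 differed by 0.74 ± 0.14 (adjusted p = 0.0012), both without overlap. GDH3 gave 12.6, 15.6 and 13.9 CPM in PADH1-GCN4, against 24.6, 27.8 and 21.8 CPM in wt_met (−0.83 ± 0.12, adjusted p = 0.00026). MEP3 differed by 0.08 ± 0.11 (adjusted p = 0.54).

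**Figure D5:**
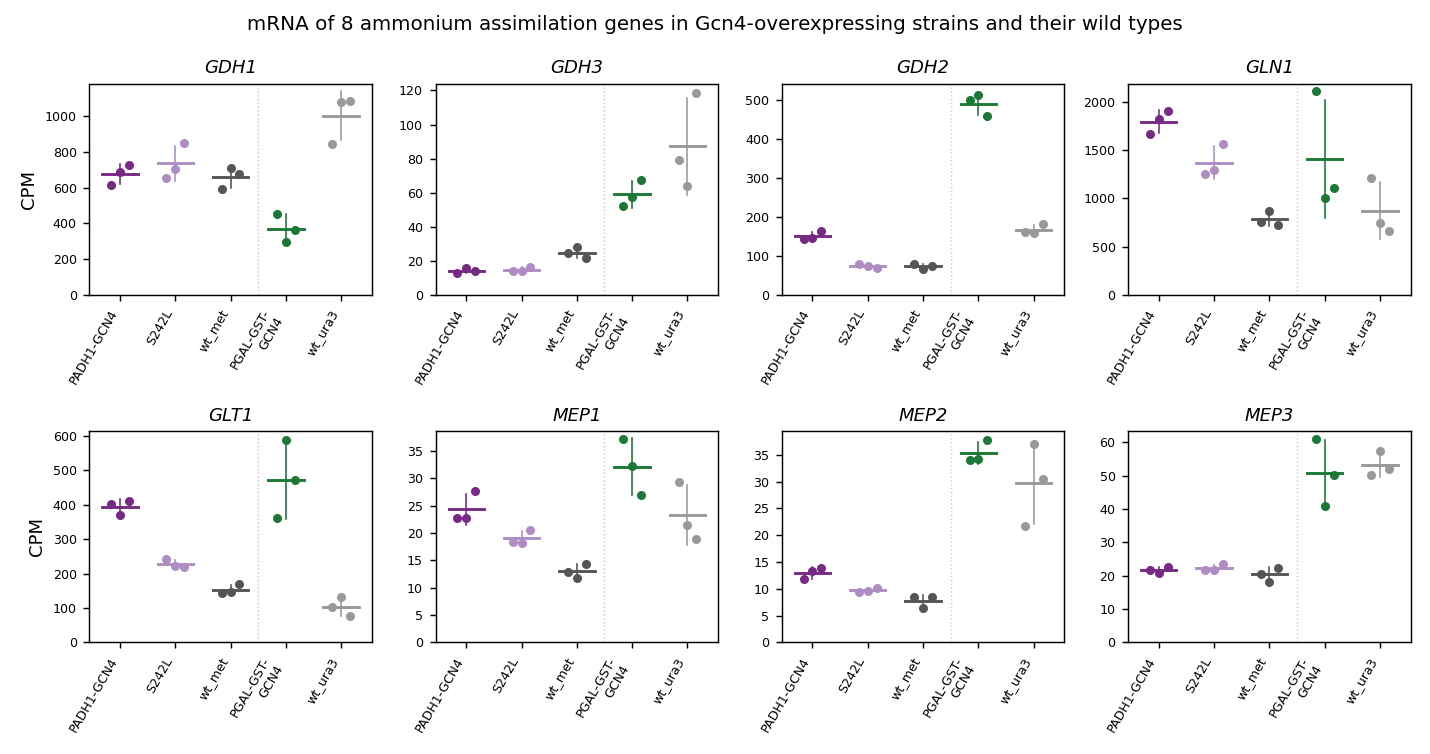
mRNA levels in CPM (linear axes from 0) of the 8 members in PADH1-GCN4, PADH1-GCN4S242L (S242L) and wt_met, and in PGAL-GST-GCN4 and wt_ura3. Points are libraries, horizontal lines means and vertical lines SD (n = 3), and the dotted line parts sets that were scaled apart. GDH2 is at 142 to 164 CPM in PADH1-GCN4 and at 80.2 CPM or less in S242L and wt_met.

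With the S242L form, 0 of 8 members were called, against 4.26% of 5545 genes, and 5 had an unadjusted p below 0.05. DESeq2 also called 0. GLN1 was higher by 0.81 ± 0.11, GLT1 by 0.57 ± 0.09 and MEP1 by 0.55 ± 0.12, and GDH3 was lower at −0.75 ± 0.12, each with an adjusted p below 0.01 and under 2-fold. Of all genes, 13.2% had an adjusted p below 0.01 with this form. GDH2 gave 80.2, 72.7 and 68.8 CPM in PADH1-GCN4S242L and differed from wt_met by 0.03 ± 0.10 (approximate 95% interval −0.17 to 0.22).

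PADH1-GCN4 and PADH1-GCN4S242L were compared directly. GDH2 was the 1 member called, higher in PADH1-GCN4 by 1.03 ± 0.10 (adjusted p = 9.6e-06), against 3.48% of genes, and it dropped to 0.95 and 0.97 without replicate 3 of either strain. GLT1 was higher by 0.79 ± 0.09 (adjusted p = 3.4e-05), less than 2-fold, and GLN1 by 0.39 ± 0.11 (adjusted p = 0.013). GDH3 differed by −0.07 ± 0.13 with an interval of −0.32 to 0.17. The S242L libraries stand in a table of their own beside the same wt_met columns, so any difference in sequencing run and the substitution cannot be told apart.

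In PGAL-GST-GCN4, 9 members were tested and 3 called, 2 higher and 1 lower, against 23.4% of 5574 genes. GLT1 gave 360.3, 587 and 471 CPM in PGAL-GST-GCN4, against 103, 132 and 76.6 CPM in wt_ura3, and rose by 2.19 ± 0.25 (adjusted p = 0.00015). GDH2 gave 502, 514 and 460.0 CPM in PGAL-GST-GCN4, against 161, 159 and 182 CPM in wt_ura3, and rose by 1.56 ± 0.15 (adjusted p = 6.2e-05). GDH1 gave 455, 297 and 362 CPM in PGAL-GST-GCN4, against 846, 1081 and 1087 CPM in wt_ura3, and fell by 1.44 ± 0.22 on the log2 scale (adjusted p = 7e-04).

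The groups did not overlap for these 3 genes, and the share of all genes without overlap was not computed. Each of the 3 stayed called when any 1 library was left out. The ratio of GDH1 to GDH2 mRNA per coding kilobase averaged 1.82 ± 0.40 in PGAL-GST-GCN4 and 14.4 ± 1.82 in wt_ura3 (SD, n = 3 each). In the ADH1 promoter set it averaged 10.8 ± 0.54 in PADH1-GCN4, 24.2 ± 5.03 in PADH1-GCN4S242L and 22.1 ± 3.94 in wt_met.

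GLN1 gave 2114, 1001 and 1106 CPM in PGAL-GST-GCN4, against 1210.0, 746 and 664 CPM in wt_ura3. Replicate 1 was the highest on both sides and the groups overlapped, but PGAL-GST-GCN4 was above wt_ura3 in each same-numbered pair. The difference of 0.69 ± 0.34 was not called (adjusted p = 0.12), nor was the 0.66 with a replicate block (adjusted p = 0.024), and both were under 2-fold. MEP1, MEP2, MEP3 and GDH3 differed by 0.47 ± 0.22, 0.25 ± 0.22, −0.07 ± 0.18 and −0.56 ± 0.23, all with overlapping libraries and none called.

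DAL80 counts were low throughout. Over 3 libraries its mRNA counts summed to 7 for Δrpl7a, 13 for Δrpl9a, 2 for Δrpl6a, 12 for Δrpl15b and 11 for Δrps27b, against 4 in the wild type, and its footprints were 0 in all libraries of Δrpl7a and Δrpl15b. In the ADH1 promoter set it had 2, 1 and 2 counts in PADH1-GCN4 and 2, 3 and 5 in PADH1-GCN4S242L, against 8, 7 and 7 in wt_met. Only in the plasmid strains did it pass the filter, with 0.925, 1.77 and 2.00 CPM in PGAL-GST-GCN4, against 1.01, 1.81 and 0.749 CPM in wt_ura3 (0.40 ± 0.43, adjusted p = 0.46). Outside the plasmid set DAL80 was not tested, and its libraries overlapped those of the wild type except in Δrps27b mRNA, which was above them and where its chromosome XI had a median of 0.95, and in PADH1-GCN4, which was below wt_met.

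Other genes of nitrogen supply were read from 3 lists. The first held 18 genes of amino acid uptake and nitrogen breakdown that are subject to nitrogen catabolite repression. The others held 9 regulators of nitrogen genes or of the permeases, and 10 genes whose enzymes use glutamate or glutamine. In Δrpl7a mRNA, 7 of 18 uptake and breakdown genes rose and 1 fell, where 12.3% of all genes rose and 6.36% fell, with a list median of 0.82 against 0.03 for all genes. The proline permease gene PUT4 rose by 5.07 ± 0.71, the proline oxidase gene PUT1 by 3.52 ± 0.41 and the general amino acid permease gene GAP1 by 3.38 ± 0.53 (adjusted p from 3.9e-06 to 6e-05). In Δrpl9a 3 rose, in Δrpl6a 1, and in Δrpl15b and Δrps27b 0, where 6.78%, 3.99%, 0.273% and 4.1% of all genes did, with medians of 0.29, −0.07, 0.20 and 0.30. Of the same 18 genes, 4 rose in PADH1-GCN4, 2 in PADH1-GCN4S242L and 8 in PGAL-GST-GCN4, where 6.49%, 2.9% and 14% of all genes did. The list medians there were 0.66, 0.32 and 0.55, and 1 gene fell in PADH1-GCN4S242L, where 1.35% of all genes did.

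On footprints the same list had 1 gene higher and 0 lower in Δrpl7a, among 17 tested, where 3.67% of all genes were higher, with a median of 0.20 against −0.02 for all genes. Its translation efficiency was called lower for 4 of 18 genes in Δrpl7a and 4 of 18 in Δrpl9a, where 10% and 6.93% of all genes were lower, with medians of −0.92 and −0.94 and with 0 genes higher. GAP1 was at −3.28 ± 0.61 and PUT1 at −3.01 ± 0.52 in Δrpl7a. Like GDH2 and MEP1, GAP1 and PUT1 thus had higher mRNA there without a called footprint difference (0.09 ± 0.26 and 0.51 ± 0.26).

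Among the 9 regulators, 2 rose in Δrpl7a mRNA, where 12.3% of all genes did. They were GAT1, which encodes a GATA activator (1.22 ± 0.20), and UGA3, the activator of GABA genes (1.03 ± 0.14). None of the 9 was called in Δrpl9a, Δrpl6a, Δrpl15b or Δrps27b, where 7.96%, 5.05%, 0.492% and 5.54% of all genes were. In PADH1-GCN4, 4 of 9 regulators rose, led by UGA3 at 2.47 ± 0.12, GLN3 at 1.69 ± 0.13 and the permease-controlling kinase gene NPR1 at 1.13 ± 0.10. In PADH1-GCN4S242L 2 of 9 rose and in PGAL-GST-GCN4 5 of 9, while of all genes 6.49% rose in PADH1-GCN4, 2.9% in PADH1-GCN4S242L and 14% in PGAL-GST-GCN4. The list medians in these strains were 0.62, 0.47 and 1.25.

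Of the 10 genes that use glutamate or glutamine, 6 rose in PADH1-GCN4, 7 in PADH1-GCN4S242L and 7 in PGAL-GST-GCN4, to be read against the same shares, and 0 fell, with medians of 1.80, 1.48 and 1.76 against −0.01, 0.00 and −0.01 for all genes. On Δrpl7a footprints 5 of 10 rose, against 3.67% of all genes, among them the glutamate decarboxylase gene GAD1 by 1.83 ± 0.22 and the aminotransferase gene BAT1 by 1.68 ± 0.12, with a list median of 1.12. In Δrps27b mRNA 3 of 10 were called higher, against 4.1% of all genes, of which AAT1 and GFA1 lie on chromosome XI and were at 0.32 and 0.12 once that chromosome's median was subtracted.

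Likeness of profile was measured as Pearson's r of log2(CPM + 1) over the 18 mRNA libraries of the deletion set, among 5035 genes with a mean of at least 10 CPM. These libraries share strains and replicate numbers, and the values describe them only. MEP1 and GDH2 were the most alike pair of members at r = 0.85, and GDH3 and GLT1 the most opposed at −0.689. The genes most like MEP1 were ALD3 and MSC1 (0.97 and 0.968), those most like GDH2 were CDC34 and GAP1 (0.969 and 0.967), and those most like GDH1 were AIP1 and VPS15 (0.939 and 0.927). GDH3 was most like CTS1 and ATG26 (0.917 and 0.885), GLT1 like DED1 and FAS1 (0.922 and 0.92), GLN1 like HTC1 and ARE2 (0.85 and 0.845) and MEP3 like ELO1 and CYC1 (0.791 and 0.757). MEP2 and DAL80 were below the level required.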

How the data were processed

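mRNA-seq and Ribo-seq of 50 samples in 17 groups were taken as deposited counts per gene. The authors trimmed adapters and discarded short or low-quality reads (FASTX-toolkit), aligned reads to the transcriptome with segemehl and counted uniquely mapped reads, for Ribo-seq in coding regions only, and the labels name the build sacCer3 (R64). The use of strand in counting is not stated. No column of per-sample values was left unused, and the wt_met columns that stand in 2 tables differed in 0 counts and were used once.

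Each table was filtered (filterByExpr), scaled by TMM and fitted over all its groups with edgeR 4.0.16 (quasi-likelihood test, R 4.3.3), with Benjamini-Hochberg adjustment across every gene tested. Calls required an adjusted p below 0.01 and a fold above 2, as in the study's methods. CPM are counts over the scaled library size and RPKM are CPM per coding kilobase. Intervals are 1.96 SE either side, and SE is the absolute log2 fold change over the square root of F. Translation efficiency was the interaction of assay and strain, with the assays scaled apart. The fits were tested on simulated data. DESeq2 1.42.0, RLE scaling, no count filter, a replicate block, fits of 2 groups, no fold minimum and leaving out each library were alternatives. The 9 genes and the 3 lists were chosen with earlier results of these data known. The genes named from the lists were the 3 or fewer with the largest called differences in a comparison. 1 gene of the lists is counted but not reported by name here.

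Replicates are stated to be biological. Same-numbered mRNA libraries of the deletion set deviated together (correlation of deviations from 0.145 to 0.671 over 45 pairs), as did those of the plasmid set (0.367 to 0.447), whereas those of Ribo-seq (lowest −0.205), PADH1-GCN4 (lowest −0.264) and PADH1-GCN4S242L (lowest −0.528) did not. Upstream windows came from RefSeq's R64 assembly, in which 5741 of 5743 mRNA identifiers were matched. The limit given for 0 counts is 3 counts and covers counting error only.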

Additional observations from a re-analysis of the deposited data

Results flagged for a closer look

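Members called in a comparison of strains with each other, rather than with the wild type, are given here with edgeR's adjusted p. Between long-lived and short-lived strains, MEP1 mRNA differed by 1.19 ± 0.15 (SE, adjusted p = 4.8e-06), with the SE and p resting on libraries within strains. Between PADH1-GCN4 and PADH1-GCN4S242L, GDH2 mRNA differed by 1.025 ± 0.098 (adjusted p = 9.6e-06).

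In comparisons of 1 deletion strain with the mean of the other 4, chosen after the values were seen, Δrpl6a mRNA stood apart for GDH3 (1.08 ± 0.10, adjusted p = 4e-07) and GLT1 (−1.32 ± 0.18, adjusted p = 1.9e-05). Footprints of GDH1 stood apart in Δrpl7a (1.24 ± 0.07, adjusted p = 1.2e-11) and those of GDH3 in Δrps27b (−1.84 ± 0.47, adjusted p = 0.0025). The p-values of these comparisons describe values already seen and are not a separate test. The GDH3 mRNA difference was 0.85 and under the fold minimum with Δrps27b left out, and the GDH3 footprint difference rested on 5, 3 and 8 counts in Δrps27b.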

How the results depend on the processing

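DESeq2, RLE scaling and no count filter changed no call among 193 member values each. The replicate block changed none either, with GDH2 mRNA in Δrpl7a at 1.57 and GDH1 in PGAL-GST-GCN4 at −1.45. Leaving out 1 library kept the call of 1695 of 1718 values, with 18 calls lost, 5 gained and 0 reversed. Leaving out 1 Δrpl6a Ribo-seq library leaves 1, assumed to vary like the other groups.

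Numbers of members called ranged under leave-one-out from 0 to 1 for Δrpl6a footprints, 1 to 3 for Δrpl6a translation efficiency, 2 to 3 for Δrpl7a mRNA, 0 to 1 for Δrpl9a translation efficiency, 0 to 1 for Δrps27b footprints (also against the other strains), 0 to 2 for Δrps27b translation efficiency, 1 to 2 for long-lived minus short-lived mRNA, 2 to 3 for PADH1-GCN4 and 0 to 1 for PADH1-GCN4 minus PADH1-GCN4S242L. A fit of only Δrps27b and the wild type called 0 footprint members in place of 1. With Δrps27b left out, an alternative chosen after seeing the data, 2 members in place of 1 were called for long-lived minus short-lived mRNA and 1 in place of 2 for Δrpl6a mRNA minus the other strains. The cause was not tested.

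Without the fold minimum, mRNA calls among 8 members numbered 4 in Δrpl9a (18.1% of all genes), 4 for long-lived minus short-lived strains (44%), 5 for Δrpl6a minus the others (18.4%), 6 in PADH1-GCN4 (33.9%), 4 in PADH1-GCN4S242L (13.2%) and 2 between those (22.8%). Footprint calls numbered 2 for Δrpl7a (30% of all genes), 1 for Δrpl9a (20.8%), 2 for Δrpl6a (10.2%), 1 for Δrpl15b (3.13%), 4 for Δrps27b (37.5%), 2 for long-lived minus short-lived strains (35.1%), 3 for Δrpl7a minus the others (37%) and 4 for Δrps27b minus the others (39.5%). Subtracting the chromosome median brought the called AAT1 and GFA1 (Δrps27b) and CAR2 (Δrpl6a footprints, 0.83) under the fold minimum. Low counts limit DAL80 and GDH3 footprints.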
